A study of Mus musculus with 46 samples.

Results

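mmu-miR-149-3p and mmu-miR-149-5p, the mature miRNAs cut from the opposite arms of the mouse Mir149 hairpin, were followed in heart, liver and brain RNA of falling integrity. They are 2 of the 815 miRNAs that were detected on at least 5 arrays, out of 1881 mouse miRNAs measured. The pair was selected on measured values: over the 45 arrays analysed, the 3p arm had the most negative Pearson correlation with the RNA integrity number (RIN) of all 815 miRNAs, and the 5p arm of the same hairpin had a positive one. The relation of either arm to RIN, and to storage time on the same arrays, is therefore described here without a test. Tissue differences among arrays with high RIN values are another contrast and were tested, but these arrays are among the 45 that chose the pair, and liver has both the lowest 5p values and most of the low RIN arrays.

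Organs of male C57BL6 mice of an Il1a knock-out strain were cut into 8 pieces and stored for 0 to 96 h in the cold (4 °C) or at room temperature (RT) before stabilisation and extraction of total RNA with its small RNAs. All groups share the knock-out, and there was no wild-type group. The arrays held 1 animal per temperature, whose heart, liver and brain were each hybridised on a slide of their own, so that animal, temperature and, within a tissue, slide cannot be told apart, and no time point has a replicate. The 45 arrays are 7 heart, 6 liver and 8 brain arrays of 4 °C and 8 arrays of each tissue of RT, of which 33 had a RIN over 6 (13 heart, 6 liver and 14 brain) and 12 had a RIN of 6 or lower (2 heart, 8 liver and 2 brain).

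An array of heart at 4 °C, that of 0 h, stayed out of the main values. On it 215 miRNAs were detected, against 268 to 798 on the others. On that array, with a RIN of 8.8, the 3p arm was not detected and had a log2 value of 0.45, and the 5p arm had 4.53. The summed signal of detected miRNAs was 153088 to 541770 units per array. The tissue labels were borne out by marker miRNAs. The liver miRNA miR-122-5p was at 11.19 or higher on the log2 scale in liver and at most 7.38 elsewhere, the muscle miRNA miR-1a-3p at 13.64 or higher in heart and at most 7.84 elsewhere, and the neuronal miRNA miR-124-3p at 12.97 or higher in brain and at most 4.61 elsewhere.

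A miRNA hairpin is excised from a longer transcript by Drosha and opened by Dicer into a duplex of its 5p and 3p arms. Usually one arm is kept by Argonaute, which it guides to messenger RNAs through its seed, while its partner is degraded, and the 3p arm of this hairpin was formerly written miR-149*, the asterisk marking the minor arm. RIN is a score that is read from the electrophoresis trace of total RNA, in which ribosomal RNA dominates, and it is low where the RNA is broken into fragments.

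The sequences are shown because the arms differ strongly in base composition. RefSeq places the hairpin at chr1:92850378-92850443 on the plus strand of GRCm38.p6, inside the interval of Gpc1 (chr1:92831645-92860211), the gene of the cell surface proteoglycan glypican 1. In the hairpin, capitals mark the arms, 5p at positions 4 to 26 and 3p at positions 44 to 65, counted from 1 at the 5′ end, and in the arms capitals mark the seed (bases 2 to 8).
Mir149 hairpin: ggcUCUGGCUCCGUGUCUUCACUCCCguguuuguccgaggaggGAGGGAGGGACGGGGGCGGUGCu
miR-149-5p: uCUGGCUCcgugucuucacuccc
miR-149-3p: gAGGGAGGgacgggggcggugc
The 3p arm holds 15 G among its 22 bases (68.2%), with a longest run of 5, and its share of G and C is 81.8%. The 5p arm holds 4 G and 10 C among 23 bases, which is 17.4% G and 60.9% G and C. A mature sequence was found in the RefSeq table for 680 of the 815 miRNAs (83.4%). Among these the 3p arm ranked 4th and the 5p arm 571st by share of G.

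The seed of the 3p arm is shared by 3 other mouse miRNAs on the array, of which miR-1943-5p and miR-7016-5p were detected on at least 5 arrays. No other miRNA on the array with a sequence in the table had the seed of the 5p arm. The miRNAs with the shared seed are printed because their patterns are set beside that of the 3p arm below, and capitals again mark the seed.
miR-1943-5p: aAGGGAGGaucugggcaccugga
miR-7016-5p: cAGGGAGGggagcgagaguag

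The values used are the authors' log2 values after variance stabilizing normalization (VSN), which scales the arrays to each other and compresses differences between low signals. In bulk tissue RNA, fewer cells of a type and less RNA per cell cannot be told apart. The scanner software called the 3p arm detected on 45 of the 45 arrays and the 5p arm on 44 of them, the exception being liver of 0 h at 4 °C.

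On arrays with high RIN values miR-149-3p was low in each tissue. In heart with a RIN over 6 its log2 value was 2.63 at the lowest, 3.28 at the median and 3.69 at the highest array (n = 13). In liver these values were 2.51, 3.11 and 3.63 (n = 6), and in brain 2.30, 3.04 and 4.35 (n = 14). The 3 ranges overlap between 2.63 and 3.63.

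On arrays with a RIN of 6 or lower, miR-149-3p was higher. In heart both such arrays, of 48 and 96 h at RT with RIN values of 4.6 and 2.2, were at 5.93 and 7.03. In brain, 48 and 96 h at RT (RIN 5.5 and 3.3) gave 5.16 and 7.24. Both arrays of each of these tissues lay above all arrays of the same tissue with a RIN over 6, as did those of 37.5% of the 815 miRNAs in heart and of 28.7% in brain, a comparison that the choice of the pair used. In liver the 8 arrays of low RIN had 3.02 at the lowest, 7.54 at the median and 8.96 at the highest. The lowest of them was the array with a RIN of exactly 6, of 1 h at RT. The next lowest was at 4.47, against at most 3.63 on the 6 liver arrays of high RIN. The share of the 815 miRNAs that separated likewise in liver was not counted.

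The mean of the low RIN arrays minus that of the high RIN arrays was 3.29 in heart, 3.55 in liver and 3.15 in brain on the log2 scale for miR-149-3p. The SD among the high RIN arrays of the same tissue was 0.29, 0.42 and 0.66. Over all 815 miRNAs the median of the same difference was -0.03 in heart, 0.32 in liver and -0.17 in brain. The 3p arm ranked 95th, 60th and 41st of 815 by this difference, so that other miRNAs differed more in each tissue although none had a larger r with RIN in size. Without the liver slide of RT, which holds 7 of the 8 liver arrays of low RIN, the liver difference was 1.95.

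miR-149-5p had another pattern, with values that lay apart by tissue. In heart with a RIN over 6 its log2 value was 7.004 at the lowest, 7.68 at the median and 7.96 at the highest array. In brain it was 6.18, 7.04 and 7.81, and in liver 2.85, 3.43 and 3.79. All 6 liver arrays of high RIN lay below all heart and brain arrays of high RIN. How many of the other miRNAs separated likewise between these tissues was not counted.

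Where RIN was low, miR-149-5p was lower in brain and in part in heart. The 48 and 96 h brain arrays of RT were at 5.84 and 5.10, both below the 14 brain arrays of high RIN, as were those of 17.8% of the 815 miRNAs. In heart the 48 h array of RT was at 7.10, inside the range of the high RIN arrays, and the 96 h array at 5.61, below it. The 8 liver arrays of low RIN had 2.24, 2.83 and 3.54 as lowest, median and highest value, against 2.85 to 3.79 on those of high RIN. By its low minus high RIN difference in liver, the 5p arm ranked 246th from the lowest of 815. The mean difference between low and high RIN was -1.25 in heart, -0.44 in liver and -1.58 in brain, with an SD among high RIN arrays of 0.29, 0.37 and 0.42. Without the 96 h array of RT the heart difference was -0.51 and without the 48 h array -1.9995. Without the liver slide of RT, which leaves 1 liver array of low RIN, the liver difference was 0.25, and without that of 4 °C -0.94.

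**Figure D1:**
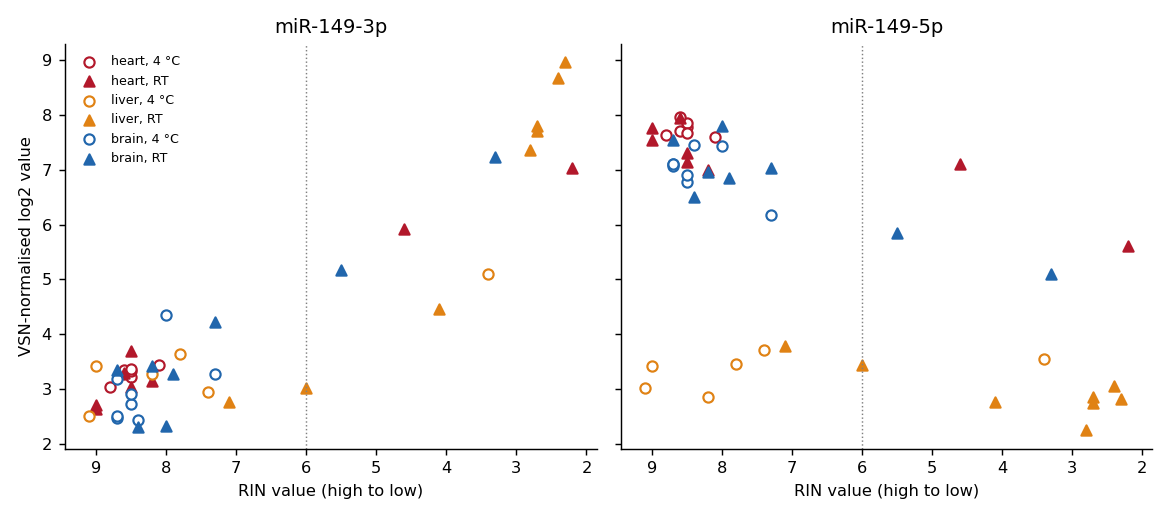
VSN-normalised log2 value of miR-149-3p (left) and miR-149-5p (right) on each of 45 arrays against the RIN value, which falls from left to right, with the boundary of 6 dotted. Colours are tissues, open circles are 4 °C and filled triangles RT. The 3p arm lies between 2.30 and 4.35 on the 33 arrays with a RIN over 6 and reaches 8.96 below it, while the 5p arm separates liver from heart and brain.

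The tissue differences of high RIN arrays were tested with limma over all 815 miRNAs, with the slide as a random block and Benjamini-Hochberg adjustment. These arrays were 7 of 4 °C and 6 of RT in heart, 5 and 1 in liver, and 8 and 6 in brain. The liver contrasts therefore rest mostly on the liver of 1 animal on 1 slide. The liver minus heart difference of miR-149-5p was -4.23 ± 0.20 on the log2 scale (SE, adjusted p = 2.66e-19). It was higher in brain than in liver by 3.67 ± 0.20 (adjusted p = 2.86e-18). Its brain minus heart difference was -0.56 ± 0.16 (adjusted p = 0.00216), which is 1.47-fold lower in brain. Its order was thus heart, brain, liver. No fold is given against liver, where the arm lay near background: on the 6 liver arrays of high RIN all 15 spots were well above background on 0 arrays for one 5p probe and on 1 for its partner, against all 13 heart and all 14 brain arrays for both. The size of the liver differences depended on how this was treated, with -3.09 and 1.98 for liver minus heart and brain minus liver under quantile normalization and -1.14 and 0.74 under normexp, a model-based background correction. For context, 54.6% of the 815 miRNAs passed in liver against heart, 72.5% in brain against liver and 69.1% in brain against heart, so that passing was common. By size, the 5p arm's liver against heart difference was the 20th largest of 815 and its brain against heart difference the 539th.

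The brain and heart difference no longer passed in 3 of the 18 alternatives that were tested. With all 46 arrays the adjusted p was 0.156, with 1 mean per slide 0.147, and without the heart slide of 4 °C 0.0676. The p-values of limma here measure the spread between arrays of the organs of 1 animal per temperature, not between animals.

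miR-149-3p did not pass in any of the 3 contrasts. Its brain minus heart difference was -0.14 ± 0.21 (SE, adjusted p = 0.544), its brain minus liver difference -0.03 ± 0.26 (adjusted p = 0.912) and its liver minus heart difference -0.11 ± 0.26 (adjusted p = 0.743). The direction of brain minus liver and of liver minus heart differs between ways of scaling the arrays. Brain minus heart was below 0 in each of them except without scaling, where it was 0.0053. Quantile normalization gives all arrays the same distribution of values. With it, brain minus heart and brain minus liver were -1.14 and -1.60, with adjusted p of 2.90e-07 and 2.62e-08. Without scaling, brain minus liver was 0.66 (adjusted p = 0.0404). Brain minus liver passed in 5 of the 18 alternatives, and with normexp liver minus heart was 0.79 (adjusted p = 1.19e-08).

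The course of the 3p arm over storage differed between temperatures. In liver at RT its log2 values were 2.76, 3.02, 4.47, 7.36, 7.71, 7.80, 8.68 and 8.96 after 0, 1, 3, 6, 12, 24, 48 and 96 h, while RIN was 7.1, 6.0, 4.1, 2.8, 2.7, 2.7, 2.4 and 2.3. Most of this span lay between 1 and 6 h, where RIN went from 6.0 to 2.8. Between 6 and 96 h, with RIN between 2.8 and 2.3, the value was higher at each later array.

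In liver at 4 °C the 3p arm was at 2.51, 2.95, 3.42, 3.28, 3.63 and 5.10 at 0, 1, 3, 12, 24 and 48 h. The last of these arrays, with a RIN of 3.4, was the only liver array of 4 °C with a RIN of 6 or lower. At 48 h the liver kept at RT stood at 8.68.

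In heart at RT the 3p arm stayed between 2.63 and 3.69 from 0 to 24 h, with RIN values of 9.0 to 8.2, before the 5.93 and 7.03 of 48 and 96 h. In heart at 4 °C it was 3.04, 3.22, 3.28, 3.33, 3.35, 3.36 and 3.44 at 1, 3, 6, 12, 24, 48 and 96 h. These 7 values were in the order of the storage times, over a RIN range of 8.8 to 8.1. That order depends on the scaling: Spearman's rho with storage time was 1.0 with VSN, 0.393 with 75th percentile scaling on miRNAs detected on all arrays and -0.214 with normexp background correction.

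In brain at RT the 3p arm was at 2.30, 2.33, 3.35, 3.42, 3.27, 4.22, 5.16 and 7.24 at 0, 1, 3, 6, 12, 24, 48 and 96 h. In brain at 4 °C it was at 2.46, 2.50, 2.44, 2.73, 3.18, 2.91, 4.35 and 3.27 at the same times. The 48 h array of 4 °C, with a RIN of 8.0, held the highest value of any array with a RIN over 6, above the 96 h array of the same slide, whose RIN was 7.3.

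The 5p arm had no such span. In heart at RT it was at 7.77, 7.55, 7.94, 7.31, 7.14, 7.004, 7.10 and 5.61 from 0 to 96 h, and in heart at 4 °C it stayed between 7.61 and 7.96. In brain at RT it was at 6.50, 7.81, 7.55, 6.95, 6.85, 7.02, 5.84 and 5.10, and in brain at 4 °C between 6.18 and 7.45, the lowest being 96 h. In liver it was at 3.79, 3.43, 2.76, 2.24, 2.85, 2.75, 3.06 and 2.82 at RT and between 2.85 and 3.71 at 4 °C. The arrays of longest storage at RT held the lowest 5p values in heart and brain, whereas in liver the lowest was 6 h.

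**Figure D2:**
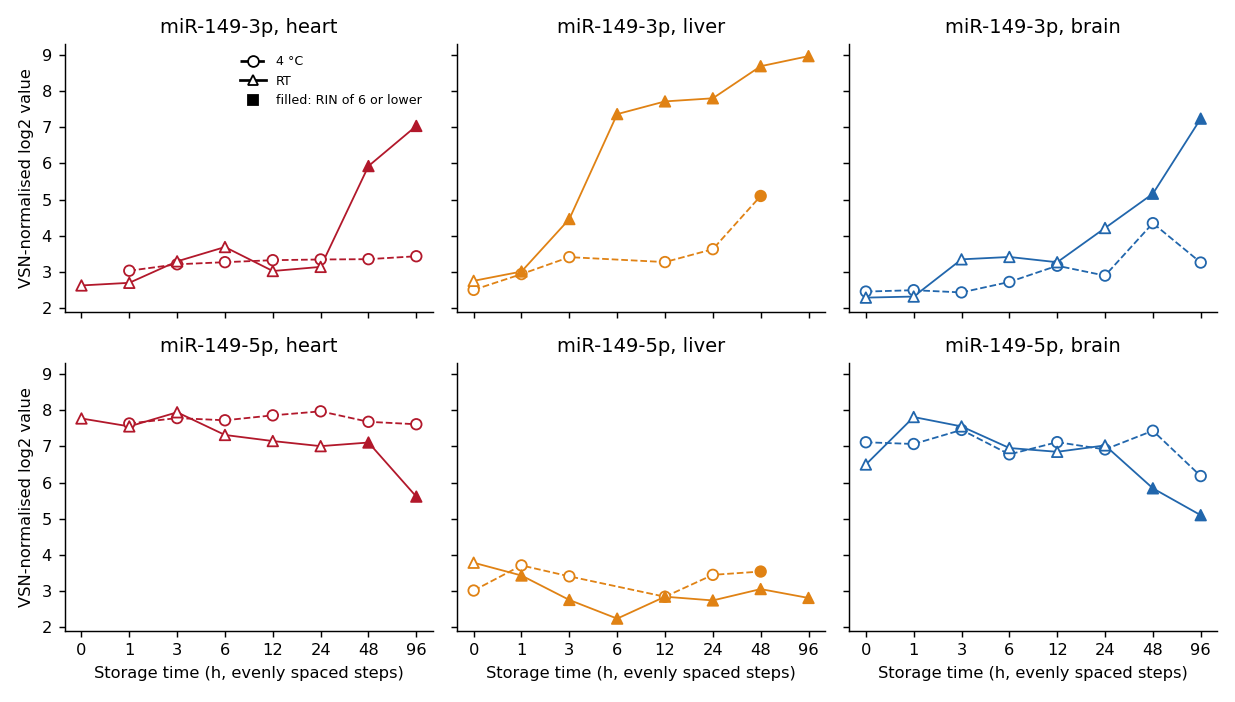
VSN-normalised log2 value of miR-149-3p (top) and miR-149-5p (bottom) against storage time in h, in evenly spaced steps, for heart, liver and brain. Each point is 1 array, dashed lines with circles are 4 °C, solid lines with triangles are RT, and filled symbols have a RIN of 6 or lower. The 3p arm of liver at RT goes from 3.02 at 1 h to 7.36 at 6 h, earlier than in heart and brain.

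Before normalization the arms differed further. The scanner signal of miR-149-3p in liver at RT was 2.77 ± 0.653 units at 0 h (error of the scanner software) and 1219 ± 108 units at 96 h, a 440-fold difference that scaling on the 180 miRNAs detected on all arrays reduced to 58.9-fold. In brain at RT the signal was 114-fold higher at 96 h than at 0 h before this scaling and 24.9-fold after it, and in heart at RT 63.6-fold and 19.7-fold. The 3p arm was thus higher at 96 h on both scales.

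For the 5p arm the direction in liver and brain depended on the scale. Its signal at 96 h of RT was 2.51-fold that of 0 h in liver and 1.13-fold in brain before scaling, but 0.336-fold and 0.247-fold after it. In heart it was 0.555-fold before and 0.172-fold after. The liver folds start from a 5p signal near background, 6.30 units at 0 h. The low minus high RIN difference of the 5p arm without scaling was -0.16 in heart, 0.59 in liver and -0.74 in brain, while the median of all 815 miRNAs stood at 1.03, 1.04 and 0.62. Relative to that median the 5p arm was at -1.19, -0.45 and -1.36 and the 3p arm at 3.56, 3.73 and 3.57.

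The ratio of the arms' signals on the same array is not altered by a factor that is applied to a whole array. Only its differences between arrays are used, since the arms are read by different probes and the ratio itself has no absolute meaning. At RT the 3p over 5p ratio of 96 h was 175-fold that of 0 h in liver, 115-fold in heart and 100-fold in brain. In liver the ratio was already 94.7-fold that of 0 h at 6 h. At 0 h the 3p arm lay near background in each tissue, as did the 5p arm in liver. The sizes of these folds therefore depend on how background is treated. Between low and high RIN arrays, the log2 3p minus 5p value differed by 4.54 in heart, 3.99 in liver and 4.73 in brain. With normexp these differences were 2.16, 1.94 and 2.18.

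At shorter storage in heart at RT the ratio was 1.17-, 1.49-, 3.21-, 2.001-, 2.43- and 18.6-fold that of 0 h after 1, 3, 6, 12, 24 and 48 h. In brain at RT it was 0.413-, 1.11-, 1.76-, 1.69-, 3.09- and 13.99-fold after the same times. In both tissues the ratio at 24 h, with RIN values of 8.2 and 7.3, was above that of 0 h. At 4 °C the ratio of the last array was 3.77-fold that of 0 h in brain (96 h). For liver at 4 °C no such fold is given, since the 5p arm was not detected at 0 h. Spearman's rho of the log2 ratio with storage time was between 0.857 and 0.952 within each of the 6 slides, with the summed probe signal for the 5p arm not detected at 0 h in liver. For the difference of the arms' VSN values, rho was 0.607 in heart at 4 °C and 0.886 to 0.952 on the other slides. With normexp it was between 0.5 in heart at 4 °C and 1.0 in liver at RT.

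**Figure D3:**
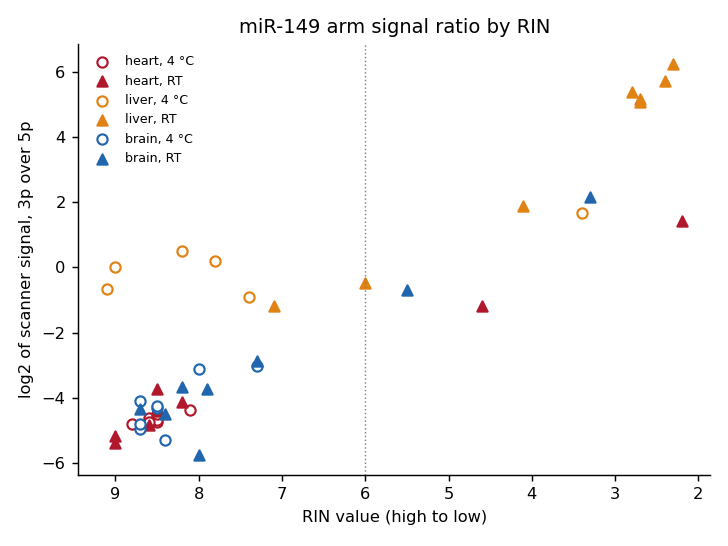
log2 of the scanner signal of miR-149-3p over that of miR-149-5p on each of 45 arrays against the RIN value, with tissues and temperatures as marked. The ratio reaches 6.27 in liver at RT, and except for the liver array with a RIN of 6.0 each low RIN array lies above all high RIN arrays of its tissue. The pair was chosen by RIN, and how many other hairpins separate likewise was not counted. Among high RIN arrays the ratio is highest in liver, where the 5p arm is low.

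Over the 45 arrays Pearson's r with RIN was -0.921 for miR-149-3p and 0.645 for miR-149-5p, the 23rd most positive of 815. Both values describe arrays that share slides, animals and probes, and the median r of all 815 miRNAs was -0.036. Next to the 3p arm came miR-5126 at -0.919, miR-7068-5p at -0.911, miR-1231-5p at -0.910 and miR-5121 at -0.907, so that the first place rests on the third decimal. The 3p arm stayed 1st with VSN only and was 4th, 5th, 8th, 10th or 29th under the 5 other ways of scaling or background correction.

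The relation rested on the low RIN arrays. Among the 33 arrays with a RIN over 6, r was -0.305 for the 3p arm, 76th from the most negative, and 0.268 for the 5p arm. Spearman's rho over all 45 arrays was -0.654 for the 3p arm. Within tissues r of the 3p arm was -0.985 in heart (n = 15), -0.898 in liver (n = 14) and -0.915 in brain (n = 16). Within slides it was between -0.986 in heart at RT and -0.524 in brain at 4 °C with VSN. With normexp it was 0.563 in heart at 4 °C, 0.378 in liver at 4 °C and between -0.699 and -0.165 on the other slides. With 75th percentile scaling on miRNAs detected on all arrays it was -0.074 in heart at 4 °C.

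For the 5p arm r with RIN was 0.854 in heart, 0.517 in liver and 0.828 in brain. Within slides it was 0.874 in brain at RT and 0.855 in heart at RT, and -0.458 in liver at 4 °C. Tissue and RIN are entangled in the pooled value, because liver has both the lowest 5p arm and most of the low RIN arrays: r was 0.323 without the liver slide of RT, 0.850 without that of 4 °C and 0.669 after the tissue means were removed.

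Few hairpins had arms that ran so far against each other. Both arms of 148 hairpins were detected on at least 5 arrays, and the median of r between the arms' values over the 45 arrays was 0.658. For miR-149 it was -0.543, the 7th lowest of 148, and within tissues it was -0.796 in heart, -0.611 in liver and -0.712 in brain. In 39 of the 148 hairpins the arms had opposite signs of r with RIN, with the 3p arm negative in 16 and the 5p arm negative in 23. These counts describe the same arrays and values that chose the pair.

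The difference of the arms' r with RIN was -1.57 for miR-149, the largest of 148 in size, against a median size of 0.262. It was also the most negative difference under each of the 5 other ways of scaling or background correction, between -1.37 and -1.67. The next most negative were miR-211 at -1.53, whose hairpin lies in the melanocyte gene Trpm1 and whose 5p arm was detected on 20 arrays, and miR-345 at -1.50, whose 3p arm was detected on 7. At the other end the 5p arm had the negative r, in miR-677 (difference 1.55), miR-328 (1.33) and miR-5132 (1.22). In several of these hairpins 1 arm was detected on few arrays, whereas both arms of miR-149 were flagged as detected on at least 44. That flag does not mean a signal clear of background, since the 3p arm at high RIN and the 5p arm in liver lay near it.

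**Figure D4:**
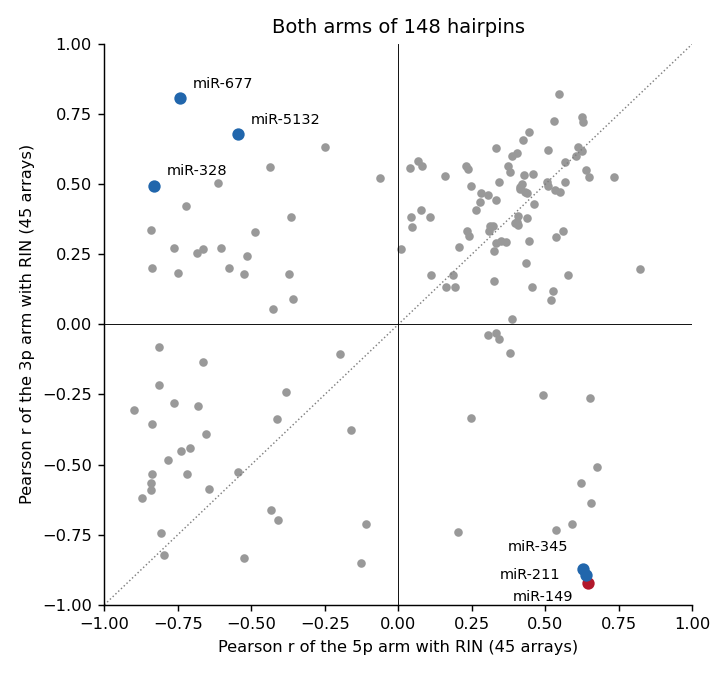
Pearson r with RIN over 45 arrays of the 3p arm against that of the 5p arm for 148 hairpins, each a point, with equality dotted. miR-149 (red) lies at 0.645 for 5p and -0.921 for 3p, beside miR-211 and miR-345 and opposite to miR-677, miR-328 and miR-5132 (blue).

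By pattern, the miRNAs most like miR-149-3p over the 45 arrays were miR-5126 (r = 0.983), miR-8110 (0.980), miR-877-5p (0.977), miR-211-3p (0.974) and miR-3960 (0.971). miR-877 is a mirtron, a hairpin made by splicing. Of 814 other miRNAs 39 had an r over 0.9 with the 3p arm. 4 of the 5 have an entry in the RefSeq table and are printed, with the seed in capitals, to show what they share with the 3p arm.
miR-5126: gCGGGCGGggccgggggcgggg
miR-8110: aAGCGUGGauugggggggggg
miR-877-5p: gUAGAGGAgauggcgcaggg
miR-211-3p: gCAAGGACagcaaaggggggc
The share of G was 77.3% in miR-5126, 66.7% in miR-8110, 55.0% in miR-877-5p and 47.6% in miR-211-3p. Their longest runs of G were 5, 10, 3 and 6 bases, and their seeds differ from that of the 3p arm and from each other. Their own r with RIN was between -0.919 and -0.894.

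The miRNAs with the seed of the 3p arm had a less negative r with RIN. For miR-7016-5p, detected on 9 arrays, it was -0.763, and for miR-1943-5p, detected on 6, it was -0.522. Both were undetected on most arrays, unlike the 3p arm. Whether their relation to RIN differs from that of the 3p arm can therefore not be told from r.

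miR-149-5p resembled another set. Most like it were miR-490-3p (r = 0.948), miR-150-5p (0.920), which is abundant in lymphocytes, miR-345-5p (0.899), miR-193b-3p (0.873) and miR-185-5p (0.864). Only 2 of the 814 others had an r over 0.9 with it. The 3 with an entry in the table are printed for comparison with the 3p set.
miR-490-3p: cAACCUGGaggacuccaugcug
miR-345-5p: gCUGACCCcuaguccagugcuu
miR-193b-3p: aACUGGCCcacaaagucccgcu
Their share of G was 27.3%, 22.7% and 18.2%, with no run of G over 2 bases, and their r with RIN was 0.469, 0.629 and 0.561. The 5p and 3p arms of miR-345 thus stand on the same sides as those of miR-149.

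Base composition went along with r over all miRNAs with a sequence. Of the 680, 120 (17.6%) held GGGG in the mature sequence, as the 3p arm does, and their median r with RIN was -0.592, with 102 (85%) below 0. Among the 560 without GGGG, as the 5p arm, the median was 0.162 and 239 (42.7%) were below 0. The 14 miRNAs with a share of G and C of at least that of the 3p arm all had a negative r, with a median of -0.769, and for the 220 with at least that of the 5p arm the median was -0.553. Across the 680 miRNAs Pearson's r between share of G and r with RIN was -0.594 and Spearman's rho -0.585. These miRNAs share arrays, and some share sequence, so the values are descriptions. The filter of 5 arrays can be met on the 12 low RIN arrays alone, and passing in that way favours a negative r. How many miRNAs of each list passed in that way was not counted, so the medians and shares below 0 carry this limit. Whether base composition plays a part in the signals of the arms was not tested.

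**Figure D5:**
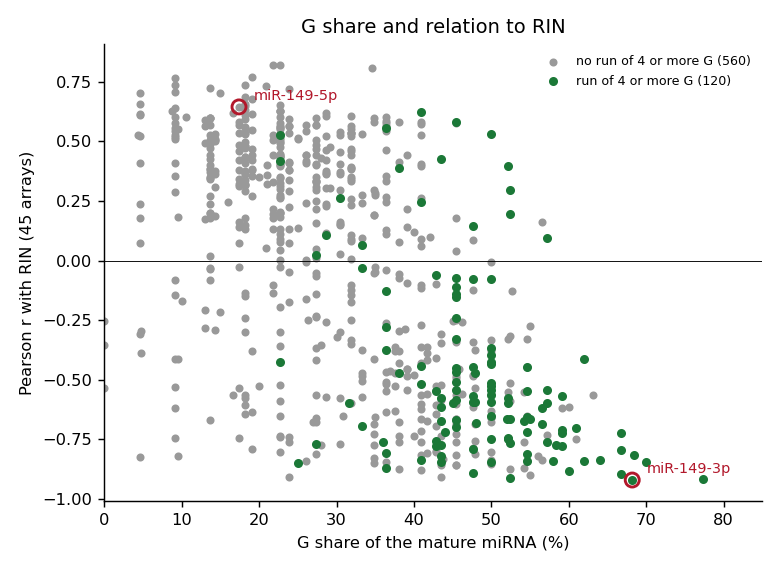
Pearson r with RIN over 45 arrays against the share of G in the mature sequence (%) for 680 miRNAs, with those that hold a run of 4 or more G in green (120) and the arms of miR-149 ringed. The 3p arm lies at 68.2% G and -0.921, the 5p arm at 17.4% G and 0.645.

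Each arm is read by 2 probes of 15 spots each. For miR-149-3p no spot of the probe A_54_P00005245 was well above background on 29 of the 33 high RIN arrays, and all 15 were on 9 of the 12 low RIN arrays. For A_54_P00005246 all 15 were on 19 of the 33 and on 11 of the 12. The 3p values of high RIN arrays therefore lie close to background, and the size of a difference from them depends on how background is treated. With normexp correction the low minus high RIN difference of the 3p arm was 0.41 in heart, 0.83 in liver and 0.90 in brain.

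The log2 signals of an arm's probes had a Pearson r of 0.969 over the 45 arrays for the 3p arm and 0.982 for the 5p arm. The 5p value also holds the gap between liver and the other tissues. The ratio of the probes' signals was not constant, at 3.04 to 13.8 for the 3p arm and 0.968 to 5.02 for the 5p arm. Its median for the 5p arm was 2.84 over the 45 arrays and 1.67 on the 12 of low RIN. Taken alone, the 3p probes had an r with RIN of -0.814 and -0.866.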

How the data were processed

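Total RNA from hearts, livers and brains was labelled with cyanine 3 and hybridised to 1-colour Agilent mouse miRNA arrays. The authors deposited, per array, the scanner intensity of each spot and the total signal of each miRNA, with its error and detection flag, made with Agilent Feature Extraction 10.10.1.1 per the file headers. They also deposited a table of log2 values after VSN. On each array these log2 values were an exact inverse hyperbolic sine transform of the background-subtracted signal, to within 1.14e-05.

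Groups, hours and RIN values came from the labels, which give 12 h where the methods give 14 h. For liver of 48 h at 4 °C the RIN in the labels is lower than that in the paper's text, and both lie below the boundary. Of 46 arrays, 1 heart array was set aside and 45 were analysed. miRNAs detected on at least 5 arrays were kept, 815 in all. Arrays with a RIN over 6 were compared between tissues with limma 3.58.1 in R 4.3.3, with slide as a random block (duplicateCorrelation, consensus correlation 0.0203), 2-sided, Benjamini-Hochberg over 815 miRNAs, threshold 0.05. The procedure was tested on simulated data. All relations to RIN and storage time are descriptions. The members and lists were chosen with earlier results of these data known. Named miRNAs are the pair, the 5 most like each arm, those with an arm's seed, 3 tissue markers and the 3 hairpins at either end of the arms' difference in r; miR-1231-5p, miR-5121 and miR-7068-5p were added for their r. No miRNA spot was saturated (0 spots). Precision is limited by how many arrays there are.

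Alternatives were 75th percentile scaling (on miRNAs detected on all arrays or on all miRNAs), no scaling, quantile normalization (each with signals under 1 unit set to 1), normexp background correction with an offset of 50, other filters and blocks, single probes, and leaving out arrays or slides. Normexp used the median spot intensity. Animal as a block was added after seeing the data.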

Additional observations from a re-analysis of the deposited data

Results flagged for a closer look

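Within the 6 tissue and temperature groups, the 3p arm, the 5p arm and their difference were searched for arrays that stand apart from their group by Dixon's criterion, 18 searches in all. The arrays of a group are a storage course and not replicates, and the difference is made from both arms. No chance rate is therefore given for these flags. In brain at 4 °C the 48 h array stood apart for miR-149-3p, at 4.35 against 3.27 for the next highest of 8 arrays. In heart at RT the 96 h array, whose RIN of 2.2 was the lowest of the group, stood apart for miR-149-5p, at 5.61 against 7.004 for the next lowest of 8. In none of the 12 comparisons of tissues at 1 temperature did all later arrays of a tissue lie on one side of its 0 h value and all those of the other tissue on the opposite side, for either arm or their difference.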

How the results depend on the processing

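The 5p arm's liver contrasts passed in each tested alternative that kept more than 1 liver array. Liver minus heart ranged from -4.95 without scaling to -1.14 with normexp, and brain minus liver from 0.74 with normexp to 4.53 without scaling. Without the liver slide of 4 °C, which leaves 1 liver array, the differences were -3.82 and 3.26. The 5p arm's brain minus heart difference of -0.56 passed in 15 of the 18 alternatives. The exceptions were -0.34 with all 46 arrays, -0.54 with 1 mean per slide and -0.40 without the heart slide of 4 °C. This difference was -0.70 to -0.40 when each slide was left out. Single 5p probes gave 2.13 and 3.00 for brain minus liver and -2.38 and -3.69 for liver minus heart. For the 3p arm brain minus heart was -0.82 with 75th percentile scaling on all miRNAs, -1.14 with quantile normalization, 0.0053 without scaling and 0.054 with all 46 arrays. Brain minus liver was -0.72 and -0.91 with 75th percentile scaling on miRNAs detected on all arrays and on all miRNAs, -1.60 with quantile normalization, -0.92 with normexp, 0.66 without scaling (which passed in the opposite direction), 0.11 with 1 mean per slide, -1.09 with the probe A_54_P00005246 alone and -0.11 to 0.29 when each slide was left out. Liver minus heart was 0.54 and 0.0886 with both percentile scalings, 0.46 with quantile normalization, 0.79 with normexp, 0.10 with all 46 arrays, 0.51 and 0.89 with single probes and -0.43 to 0.0108 when each slide was left out. Of 815 miRNAs, 374 passed in brain minus heart with normexp, and 765 with normexp and 277 with 1 mean per slide in liver minus heart, against 563 and 445.

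The low minus high RIN difference of the 3p arm stayed above 0 in each tissue and alternative. In heart it was 2.82 and 2.53 with both percentile scalings, 4.59 without scaling, 2.43 with quantile normalization, 0.41 with normexp and 2.56 with A_54_P00005246 alone, in liver 4.78, 2.89 and 0.83 for the last 3 normalizations in the same order, 4.07 with the array of RIN 6.0 in the high group, and 3.00 and 2.70 with single probes, and in brain 4.195 without scaling and 0.90 with normexp. Leaving out slides or low RIN arrays gave 2.73 to 3.84 in heart, 1.95 to 4.10 in liver and 2.11 to 4.18 in brain. The 5p difference in heart was -1.94, -2.22, -0.16, -1.70 and -1.75 under those 5 settings and -2.24 and -1.88 with single probes, in liver -1.01, -1.03, 0.59, -1.66 and -1.11, and -1.24 and -1.38 with single probes, and in brain -2.37 with percentile scaling on all miRNAs and -0.74 without scaling. Leaving out slides or arrays gave -1.9995 to -0.51 in heart and -0.94 to 0.25 in liver. Without the RT slide of heart or brain no low RIN array remains and there is no value. The cause of these differences was not tested. Signals of the 3p arm at high RIN lie near background, which limits the precision of its differences. The replicate numbers pair no arrays, since the labels number each as the first replicate. With animal, which is also the temperature, as a block, no call of either arm differed.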
